A study of Mus musculus with 2 samples.

Results

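The genes described are 40 named genes of mitosis, taken by symbol from the 27998 genes of a single-cell RNA table, and all 40 were found and had at least 20 unique molecular identifiers (UMIs). They hold the cyclins and kinase that start mitosis, the spindle checkpoint, centromere and kinetochore proteins, spindle proteins and motors, cytokinesis proteins and chromosome proteins. The study compared sorted vascular cells of mouse embryos, which cover the stage at which arterial endothelium gives rise to blood progenitors, between controls and embryos with an endothelial deletion of Mekk3, the kinase protein of Map3k3. RNA was read with droplet-based 3′ sequencing (version 3 chemistry), and there was 1 library per genotype. The control library pooled the genotypes Mekk3 fl/fl and Mekk3 fl/+, for which the labels name no Cre. The mutant library was Mekk3 fl/-; Tie2Cre+, in which the floxed allele is exposed to a recombinase active in endothelial and blood cells and the other allele is already deleted. Both were of strain C57BL/6J, and both were made from dorsal aorta together with umbilical and vitelline arteries. The sort kept CD31+CD144+ESAM+ cells that were Ter119- and had little or no CD41. Both titles give day 9.5 of development, but the mutant carries 9.7 in its stage label, so genotype, library and a possible stage gap cannot be told apart. The same holds for sex, since cells typed female by RNA were a larger part of the mutant, as given below. The number of embryos in each library is not given.

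Most genes of this kind are switched on late in the cell cycle, from the end of DNA synthesis to the end of mitosis, and their RNA and protein are removed as cells leave mitosis. Cyclin B bound to Cdk1 drives entry into mitosis, the spindle checkpoint holds chromosomes until all kinetochores are attached, and the anaphase-promoting complex (APC/C) then marks cyclin B for destruction. In embryonic vessels, endothelial cells divide while vessels grow, and arterial cells leave the cycle as they mature.

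Many such genes share promoter elements, so the stretches just upstream of the RefSeq start sites were read. Of the 40 members, 34 had an entry among the RefSeq promoters (GRCm38.p6, 250 bases before to 50 after each start), and Smc4, Kif20a, Ccna2, Tpx2, Incenp and Aurkb had none. The searched letters were TTTGAA, the core of the cell cycle homology region, and CCAAT, the box bound by NF-Y, on both strands; their letters do not overlap each other. TTTGAA was found in 26 of the 34 members (76.5%), against 20.2% of 27025 genes with a promoter and 14.3% of the 9695 genes that had at least 20 UMIs in endothelial cells. CCAAT was found in 26 of 34 (76.5%), against 41.1% and 43.1%. Both were found in 22 of 34 (64.7%), against 8.97% and 7.11%. A match describes the letters only, and is not a measured binding site.

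Printed next are 7 promoters, 5′ to 3′ and up to 120 bases before the start, chosen as examples after the ratios between the libraries were seen. Nuf2 and Nusap1 had the lowest and the highest ratio, Ndc80 is the partner of Nuf2, Ccnb2 and Cenpf had ratios above 1, and Cdk1 and Top2a are widely used markers of the group. Capitals mark TTTGAA or CCAAT on either strand (TTCAAA and ATTGG when read on the opposite one).
Cdk1, chr10:69352939-69353032, minus strand: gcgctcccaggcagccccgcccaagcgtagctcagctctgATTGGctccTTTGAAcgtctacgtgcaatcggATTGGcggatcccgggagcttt
Top2a, chr11:99024190-99024309, minus strand: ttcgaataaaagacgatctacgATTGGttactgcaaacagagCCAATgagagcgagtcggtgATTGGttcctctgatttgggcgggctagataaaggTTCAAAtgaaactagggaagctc
Ccnb2, chr9:70421555-70421674, minus strand: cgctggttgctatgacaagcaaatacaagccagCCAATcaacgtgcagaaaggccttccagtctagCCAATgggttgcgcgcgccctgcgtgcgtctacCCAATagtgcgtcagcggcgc
Cenpf, chr1:189688087-189688206, minus strand: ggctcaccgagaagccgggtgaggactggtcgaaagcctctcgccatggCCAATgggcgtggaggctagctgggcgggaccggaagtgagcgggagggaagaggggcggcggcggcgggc
Ndc80, chr17:71526858-71526977, minus strand: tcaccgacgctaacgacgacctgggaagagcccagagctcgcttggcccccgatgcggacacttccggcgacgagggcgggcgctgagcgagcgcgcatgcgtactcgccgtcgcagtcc
Nuf2, chr1:169531465-169531584, minus strand: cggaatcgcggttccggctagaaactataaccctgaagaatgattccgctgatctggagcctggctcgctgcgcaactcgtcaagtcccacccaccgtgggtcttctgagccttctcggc
Nusap1, chr2:119618178-119618297, plus strand: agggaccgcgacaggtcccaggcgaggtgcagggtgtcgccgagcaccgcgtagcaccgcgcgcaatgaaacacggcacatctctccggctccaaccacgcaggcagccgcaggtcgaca

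In these stretches Top2a held 3 CCAAT boxes and 1 TTTGAA, Ccnb2 held 3 CCAAT boxes, and Ndc80, Nuf2 and Nusap1 held neither. Bases inside the gene's own GENCODE model were left out, which shortened the Cdk1 stretch to 94 bases. Over the whole 300-base windows, Nuf2, Nusap1, Mad2l1 and Birc5 were the 4 members without either element. The mutant/control ratios of the 26 members with TTTGAA spanned 0.686 to 1.22 with a median of 0.878, and those of the 8 members without it spanned 0.404 to 1.25 with a median of 0.926. The lowest and the highest ratio of the 40 members thus both belonged to genes without these letters in the window.

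Sequencing gave 60790367 UMIs in 6675 control cells (median 7566) and 21512713 UMIs in 3242 mutant cells (median 5647). To compare cells at matched depth, each was thinned to 2500 UMIs, which left out 16.2% of control and 24.9% of mutant cells. Of the rest, 94.8% of control cells (5300) and 96.6% of mutant cells (2351) passed the endothelial gate, which asked for at least 3 UMIs of 12 endothelial markers and under 3 of each hematopoietic, mesenchymal and neuronal list. All 12 endothelial markers were detected in both. Map3k3 itself had 9.21 CPM in control and 10.3 CPM in mutant cells of the gate, and since the labels do not say which exons are floxed, a 3′ tag does not check the genotype. Besides, 5 cell barcodes occur in both libraries. Among other cell types in the gate, all 4 smooth muscle markers were higher in the mutant (31.5 against 165 CPM). All 10 hematopoietic markers (33.3 against 23.6 CPM) and all 5 erythroid ones (164 against 4.71 CPM) were lower. Of the hematopoietic ones, Ptprc, Rac2 and Cd52 rested on 1 mutant UMI each. Of 9 mesenchymal markers 7 were higher (7.73 and 9.83 CPM), and of 9 neuronal ones 8 were lower (149 and 76.8 CPM). Gap43 alone held 144 and 72.5 CPM of the neuronal sum. The neuronal markers Dcx, Ina and Nhlh1 had 0 mutant UMIs, against only 2, 7 and 1 control UMIs. Over the 12934 genes with at least 20 UMIs in this gate, 41.3% had a mutant/control ratio above 1. The 12 hypoxia genes stood at 298 and 2072 CPM. The median mitochondrial share was 3.74% and 2.54%. Female-type cells had an Xist UMI and no UMI of the Y-linked genes Ddx3y, Uty, Eif2s3y and Kdm5d. They numbered 2331 of the 5300 control and 1921 of the 2351 mutant cells of the gate. The part of these differences in the values below was not tested, except where a value is given.

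As a group, the mitosis genes were present at nearly the same summed level in control and mutant endothelial cells. Their raw UMIs, scaled to counts per 1000000 UMIs of the gate (CPM), summed to 5252 CPM in the control (95% interval 5233 to 5271) and 4853 CPM in the mutant (4822 to 4884). The ratio of 0.924 (0.917 to 0.931) is a log2 difference of -0.11, and the median gene of 12934 with at least 20 UMIs lay at -0.13. With totals scaled by TMM the ratio was 1.02, on the other side of 1, so the summed level gave no direction between the libraries. All intervals, Poisson for levels, conditional binomial for ratios and Clopper-Pearson for shares, are exact and cover counting error only, since 1 library per genotype allows no test of the genotype.

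How these UMIs were spread over cells did differ between the libraries. At 2500 UMIs per cell, 83.1% of control cells (82.1 to 84.1) and 66.5% of mutant cells (64.5 to 68.4) held 5 or more mitosis-gene UMIs, and without thinning the shares were 94.7% and 85.5%. The median cell held 11 mitosis-gene UMIs in the control, with quartiles of 6 and 17, and 8 in the mutant, with quartiles of 3 and 16. Cells without any numbered 68 (1.28%) and 118 (5.02%). A sum of UMIs per cell is a range and not a cell type, and 747 control and 408 mutant cells lay within 4 to 6 UMIs, next to the bound. No doublets were called or removed and free RNA was not subtracted. Cells with neuronal markers, which were to serve as a class without mitosis RNA, held 5 or more UMIs in 68.2% of 85 control cells and 60.0% of 20 mutant cells, at median depths of 8960 and 7464.5 UMIs. That gate set no limit on endothelial markers, so these cells need not be neurons. They therefore gave no floor for the endothelial shares.

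**Figure D1:**
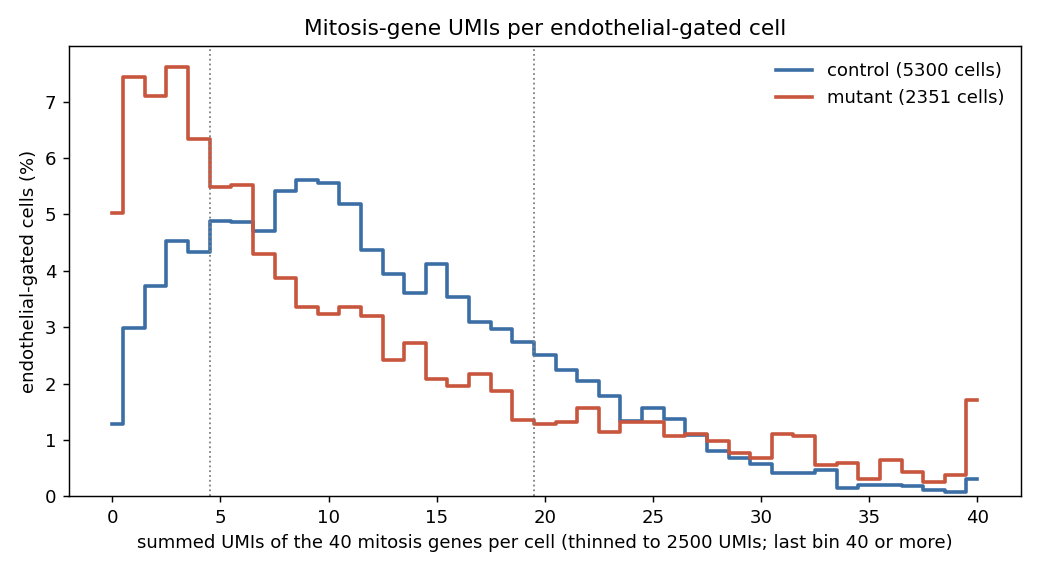
Share of endothelial-gated cells (vertical axis, %) by their summed UMIs of the 40 mitosis genes at 2500 UMIs per cell (horizontal axis, last bin 40 or more), for 5300 control cells (blue) and 2351 mutant cells (red); dotted lines mark the bounds of 5 and 20. The mutant curve lies above the control at 0 to 6 UMIs, below it from 7 to 26 and above it again from 27 on, and the last bin holds 0.302% of control and 1.70% of mutant cells.

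Mutant cells were more frequent at both ends of the range and less frequent in its middle. Of the control cells, 25.5% held 5 to 9 and 39.1% held 10 to 19 mitosis-gene UMIs, against 22.5% and 24.4% of the mutant cells. The lowest bands held more of the mutant: 0 or 1 UMI was found in 4.26% of control cells (3.74 to 4.84) and 12.5% of mutant cells (11.2 to 13.9), and 2 to 4 UMIs in 12.6% and 21.1%. At 20 or more the shares were 18.5% (17.5 to 19.6, 983 cells) and 19.6% (18.0 to 21.2, 460 cells), with overlapping intervals. This near-equal share pooled 12.8% of control and 9.02% of mutant cells at 20 to 26 UMIs with 5.70% (5.09 to 6.36) and 10.5% (9.34 to 11.9) at 27 or more, a split chosen after seeing the distribution. The cells at 20 or more carried 35.4% of all mitosis-gene UMIs of the control gate and 49.7% of those of the mutant gate. Median depth was greater in the top than in the lowest band, at 10021 against 5391 UMIs in the control and 8906 against 5936 in the mutant. Smooth muscle markers stood at 193 CPM in the lowest control band and 607 CPM in the lowest mutant band. Leaving out cells with any of these markers, an alternative added after seeing the data, gave 84.2% of control and 68.1% of mutant cells at 5 or more.

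Most single members lay within 1.5-fold of their control level. None of the 40 was higher in the mutant by at least 1.5-fold, against 15.9% of the 12934 genes, and 2 were lower by that much, Nuf2 and Incenp, against 23.7%. That background reaches down to genes with 20 UMIs. The member with the lowest control level, Ect2, had 943 control and 351 mutant UMIs, so these shares are not matched for abundance. The members' ratio was above 1 for 11 of 40, against 41.3% of all genes, and their median log2 ratio was -0.17. Intervals lay above 1 for 7 members and below 1 for 25, and held 1 for 8. UMIs tagged at 3′ ends do not scale with transcript length, but other differences in capture between genes were not measured. Control levels ran from Ect2 (17.0 CPM) and Kif20a (18.9 CPM) to Cks1b (596 CPM). Of the 40 gene models, 22 overlap another annotated gene in GENCODE vM21, 15 of them on the opposite strand, and whether counting used strand is not given in the sources used here.

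**Figure D2:**
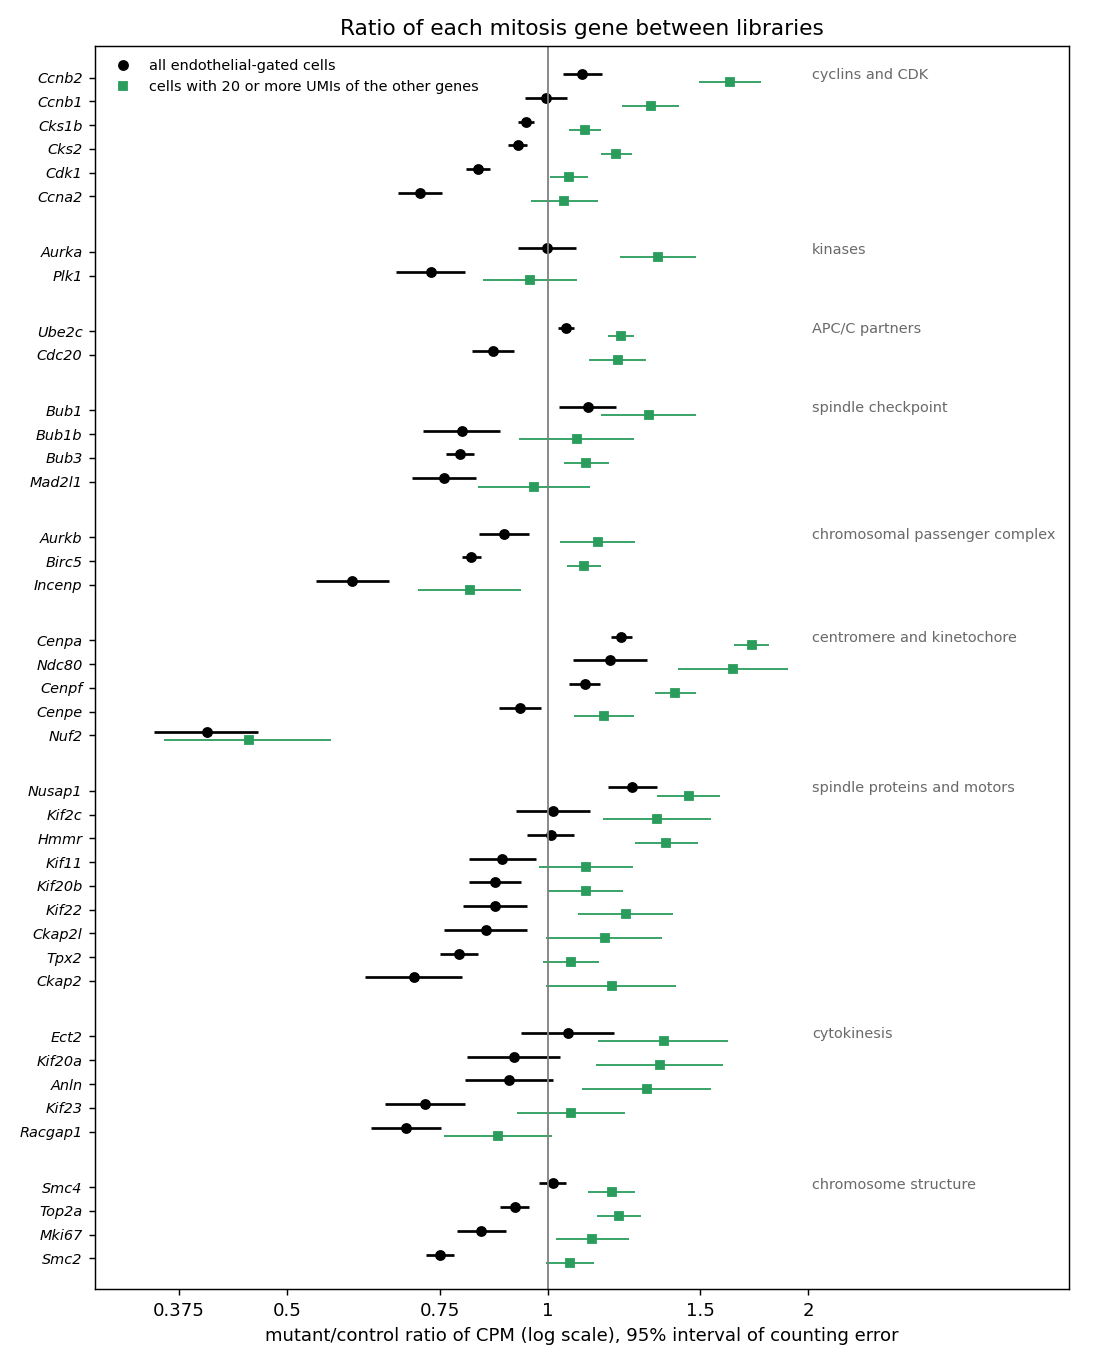
Mutant/control ratio of CPM on a log axis for each of the 40 mitosis genes, ordered by role; black points are all endothelial-gated cells and green squares the cells with 20 or more UMIs of the other 39 genes, with 95% intervals of counting error. Most black points lie left of 1 and most green squares right of it (35 of 40), while Nuf2 lies near 0.4 in both.

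The cyclins and the mitotic kinase differed among themselves, with Ccna2 the lowest. Ccna2 (chr3:36564865-36572150, minus strand), the cyclin of S phase and early mitosis, stood at 102 CPM in control and 72.6 CPM in mutant cells (ratio 0.712, interval 0.671 to 0.755). Its gene overlaps Exosc9 on the opposite strand. Ccnb1 (chr13:100778650-100786570, minus strand), the B-type cyclin that brings Cdk1 into the nucleus at mitotic entry, stood at 87.6 and 87.2 CPM (ratio 0.995, interval 0.941 to 1.05). Ccnb2 (chr9:70407692-70421547, minus strand), the Golgi-associated B-type cyclin, stood at 96.6 and 106 CPM (ratio 1.10, interval 1.04 to 1.15). The order from lowest to highest ratio was thus Ccna2, Ccnb1, Ccnb2, but the intervals of Ccnb1 and Ccnb2 overlapped. In arterial cells Ccnb1 was the higher of the B-type pair, at 1.31 (1.12 to 1.52) against 1.06 (0.921 to 1.23), again with overlapping intervals. Cdk1 (chr10:69335146-69352938, minus strand), the kinase these cyclins bind, stood at 306 and 254 CPM (ratio 0.830, interval 0.804 to 0.857). Cks1b (596 and 562 CPM) and Cks2 (481 and 444 CPM), small Cdk-binding subunits, were among the most abundant members, and their ratios of 0.943 and 0.923 passed above 1 with TMM scaling.

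Of the mitotic kinases outside the Cdk family, Aurka, the centrosomal Aurora kinase, stood at 47.0 and 46.9 CPM. Plk1 (chr7:122159439-122169873, plus strand), the Polo-like kinase of mitotic entry and exit, was lower, at 40.03 and 29.3 CPM (ratio 0.733, interval 0.667 to 0.804). The partners of the APC/C were also split. Ube2c (chr2:164769898-164778822, plus strand), its ubiquitin-conjugating enzyme, stood at 566 and 595 CPM (ratio 1.05, interval 1.03 to 1.07). Cdc20, its activator, stood at 99.5 and 86.0 CPM (ratio 0.865, interval 0.818 to 0.913). Ube2c overlaps Tnnc2, and Cdc20 overlaps Elovl1, both on the opposite strand.

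Most checkpoint and chromosomal passenger genes had ratios below 1. These are sets of 4 and 3 genes, and of all 12934 genes 41.3% had a ratio above 1. Bub1 (chr2:127801122-127831865, minus strand), the checkpoint kinase that marks the inner centromere, was the exception of the 4 checkpoint genes, at 42.7 CPM in control and 47.5 CPM in mutant cells (ratio 1.11, interval 1.03 to 1.20). Its paralog Bub1b stood at 30.8 and 24.5 CPM, Bub3 at 225 and 178 CPM, and Mad2l1 at 45.9 and 34.9 CPM, so the genes of the complex that restrains Cdc20 were lower. All 3 passenger genes were below 1. Incenp (chr19:9872296-9899551, minus strand), the scaffold of the passenger complex, stood at 43.5 and 25.9 CPM (ratio 0.595, interval 0.539 to 0.655). Aurkb, its kinase, stood at 68.5 and 61.0 CPM, and Birc5 (survivin) at 463 and 378 CPM. The scaffold thus had the lowest ratio of the 3.

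The widest split lay among centromere and kinetochore genes. Cenpa (chr5:30666777-30674830, plus strand), the histone variant that defines centromeres, stood at 291 CPM in control and 354 CPM in mutant cells (ratio 1.22, interval 1.18 to 1.25). Cenpf (chr1:189640606-189688086, minus strand), a large protein of the outer kinetochore and nuclear envelope, stood at 152 and 168 CPM (ratio 1.10, interval 1.06 to 1.15). Cenpe, the kinetochore motor, stood at 92.0 and 85.5 CPM. Ndc80 and Nuf2 are the paired arms of the complex that grips microtubules at the kinetochore, and their ratios lay on opposite sides of 1. Ndc80 (chr17:71496100-71526857, minus strand) stood at 24.95 and 29.4 CPM (ratio 1.18, interval 1.07 to 1.301), which became 0.980 when counts thinned to equal depth per cell were summed. Nuf2 (chr1:169497934-169531464, minus strand) stood at 30.4 and 12.3 CPM (ratio 0.404, interval 0.351 to 0.463), the lowest of the 40. It was detected in 7.09% of control cells and 2.51% of mutant cells at 2500 UMIs. No other gene model overlaps Nuf2.

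Spindle genes ranged from Ckap2 to Nusap1, with 3 of 9 above 1, against 41.3% of all genes. Nusap1 (chr2:119618298-119651244, plus strand), which bundles spindle microtubules near chromosomes, stood at 54.5 and 68.3 CPM (ratio 1.25, interval 1.17 to 1.34), the highest of the 40. Its start overlaps Oip5 on the opposite strand. Ckap2 (chr8:22168160-22185819, minus strand), a microtubule-nucleating spindle protein, stood at 21.7 and 15.2 CPM (ratio 0.701, interval 0.615 to 0.797). Tpx2, the activator of Aurka on the spindle, stood at 126 and 99.9 CPM. Hmmr, which binds spindle poles, stood at 68.9 and 69.5 CPM. The motors Kif11, Kif20b, Kif22 and Kif2c had ratios of 0.886, 0.870, 0.870 and 1.02, and Ckap2l had 0.848.

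In cytokinesis, the genes of the centralspindlin complex were the lowest. Racgap1 (chr15:99620496-99651656, minus strand) stood at 42.2 and 29.0 CPM (ratio 0.686, interval 0.625 to 0.753). Its motor partner Kif23 (chr9:61915905-61946774, minus strand) stood at 31.3 and 22.6 CPM (ratio 0.722, interval 0.649 to 0.802). The intervals of both subunits overlapped. Ect2, the exchange factor that centralspindlin recruits, stood at 17.0 and 18.0 CPM, and its interval of 0.931 to 1.19 held 1. Anln, an actin-binding ring protein, and Kif20a, a midzone motor, had ratios of 0.903 and 0.914 with intervals that also held 1.

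The chromosome proteins included both usual markers of dividing cells. Mki67 (chr7:135689784-135716361, minus strand), which coats mitotic chromosomes, stood at 72.9 CPM in control and 61.2 CPM in mutant cells (ratio 0.839, interval 0.786 to 0.895). Top2a (chr11:98992943-99024189, minus strand), the topoisomerase that untangles sister chromatids, stood at 204 and 187 CPM (ratio 0.916, interval 0.882 to 0.951), and it passed above 1 with TMM scaling. Smc2 and Smc4 are the core pair of condensin. Smc2 (chr4:52439243-52488260, plus strand) stood at 240 and 180 CPM (ratio 0.751, interval 0.724 to 0.780), and Smc4 (chr3:69004738-69034623, plus strand) at 209 and 211 CPM (ratio 1.01, interval 0.978 to 1.05). Neither of the usual markers was near the ends of the range.

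Within a pair of partners, the share of one gene in the pair's UMIs needs no scaling to library totals. Nuf2 made up 54.9% of the UMIs of Nuf2 plus Ndc80 in the control (53.2 to 56.7, of 1685 and 1382 UMIs) and 29.4% in the mutant (26.3 to 32.7, of 240 and 575 UMIs). Its share was also lower within arterial cells (56.8% and 27.3%), venous cells (52.7% and 31.9%) and cells with 20 or more mitosis-gene UMIs (52.6% and 24.2%). Nuf2 thus stood below its partner in the mutant in each of these gates. In the rest of the complex, Spc24 made up 66.6% of Spc24 plus Spc25 in the control and 60.8% in the mutant. Incenp made up 38.8% and 29.8% of Incenp plus Aurkb, Ccna2 53.8% and 45.4% of Ccna2 plus Ccnb1, and Smc2 53.5% and 46.0% of Smc2 plus Smc4. Bub1b made up 41.9% (40.3 to 43.4) and 34.0% (31.5 to 36.5) of Bub1b plus Bub1. Smaller differences were seen for Ccnb2, at 52.4% and 54.9% of Ccnb2 plus Ccnb1, and Ube2c, at 85.0% and 87.4% of Ube2c plus Cdc20. Cks1b made up 55.3% and 55.9% of Cks1b plus Cks2, and Racgap1 57.4% and 56.2% of Racgap1 plus Kif23. These pairs were chosen with the members' ratios in view.

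Cells rich in mitosis RNA and cells poor in it were compared between the libraries next. For each member, cells were placed in bands by the UMIs of the other 39 members, so that a gene did not choose its own cells. In cells with 20 or more such UMIs, 35 of 40 members had a ratio above 1, against 42.4% of 10793 genes in cells with 20 or more UMIs of all 40, and the median ratio was 1.18. This band has no upper end, and the mutant cells in it held 10906 CPM of mitosis genes against 9247 CPM in the control, so the members' ratios there also follow how cells fill the band. In this top band Cenpa had 468 CPM in control and 805 CPM in mutant cells (ratio 1.72, interval 1.64 to 1.80). Ndc80 (43.8 and 71.8 CPM, 1.64) and Ccnb2 (138 and 225 CPM, 1.62) followed. Only Nuf2, Incenp, Racgap1, Plk1 and Mad2l1 had ratios below 1 there, at 0.452, 0.812, 0.877, 0.955 and 0.965. In cells with under 5 UMIs, 7 of 40 members had a ratio above 1, against 34.1% of 10750 genes, with a median of 0.655. That band too was filled differently: with bands cut on all 40 genes, 226 control cells had 0 or 1 UMI and 668 had 2 to 4, against 293 and 495 mutant cells. Cells with 5 to 19 gave 8 of 40, against 40.7% of 12236 genes, and a median of 0.839. These within-band ratios therefore do not separate the level of a gene from the spread of the whole list over cells.

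Arterial and venous cells were examined separately, by at least 2 UMIs of 8 arterial or 6 venous markers and under 2 of the other list. Arterial cells had the lower level in both libraries, with 4249 CPM in 877 control cells and 4034 CPM in 432 mutant cells. The ratio was 0.949 (0.930 to 0.969), and 59.9% (56.5 to 63.1) and 52.8% (47.9 to 57.6) held 5 or more UMIs. Venous cells stood at 5335 CPM in 1507 control cells and 5648 CPM in 353 mutant cells (ratio 1.06, interval 1.04 to 1.08). Their shares at 5 or more were 86.2% and 72.5%, which goes against the CPM, so no order was read from them. At 20 or more UMIs, 21.2% (19.2 to 23.4) of control and 28.0% (23.4 to 33.0) of mutant venous cells were found, and 14.3% and 17.1% of arterial cells. Members with a ratio above 1 numbered 14 of 40 in arterial cells, against 38% of 10609 genes, and 23 of 40 in venous cells, against 40.8% of 11006 genes. Nusap1 reached 1.55 (1.34 to 1.79) in venous cells, at 53.4 and 82.9 CPM. Nuf2 was low in both, with ratios of 0.356 in arterial and 0.488 in venous cells.

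**Figure D3:**
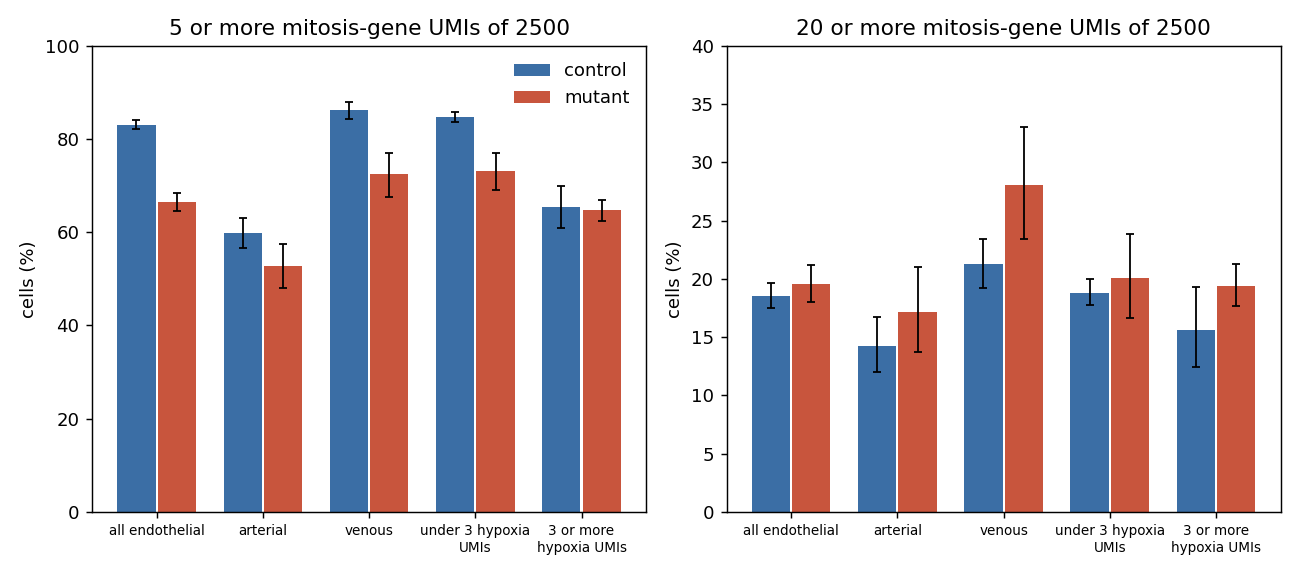
Share of cells (vertical axes, %, starting at 0) with 5 or more (left) and 20 or more (right) mitosis-gene UMIs of 2500, in all endothelial cells and in the arterial, venous and hypoxia-gene gates, for control (blue) and mutant (red); bars carry exact 95% intervals of counting error. The left panel shows lower mutant shares in all endothelial (66.5% against 83.1%) and venous cells (72.5% against 86.2%) and nearly equal ones among cells with 3 or more hypoxia UMIs.

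Hypoxia genes, targets of the low-oxygen response, differed widely between the libraries, so cells were also split by them. Cells with at least 3 UMIs of the 12 genes numbered 455 in the control and 1858 in the mutant. Within these, 65.5% (60.9 to 69.9) of control and 64.7% (62.5 to 66.9) of mutant cells held 5 or more mitosis-gene UMIs. The level there was 4285 CPM in control and 4736 CPM in mutant cells (ratio 1.11, interval 1.09 to 1.13). Cells with fewer hypoxia UMIs numbered 4845 and 493, at 5316 and 5258 CPM (ratio 0.989, interval 0.976 to 1.003), with shares of 84.8% (83.7 to 85.8) and 73.2% (69.1 to 77.1). Within the split, the gap of -16.6 points over all cells was thus -0.801 points in the hypoxia-high and -11.6 points in the hypoxia-low cells. Depth also differed, with medians of 5836 and 7267 UMIs in the hypoxia-high cells and 9323 and 8171 in the others. The median mitochondrial share was 4.80% and 2.58% in the hypoxia-high cells. Over the whole endothelial gate, Slc2a1 held 164 of the 298 CPM of the hypoxia list in the control and 484 of 2072 CPM in the mutant. A bound of 3 UMIs thus does not match the level or makeup of hypoxia RNA between the libraries. Members with a ratio above 1 numbered 23 of 40 in hypoxia-high cells, against 37.2% of 11211 genes, and 15 of 40 in hypoxia-low cells, against 35.6% of 12488 genes. Cenpa had ratios of 1.57 and 1.298 in the hypoxia-high and hypoxia-low cells, and Nuf2 had 0.419 and 0.509.

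Mitosis genes and genes of DNA synthesis (25 S-phase genes such as Pcna and the Mcm helicase) were then counted in the same cells. At 5 or more UMIs of each list, 40.4% of control cells (39.1 to 41.8) and 14.3% of mutant cells (12.9 to 15.8) held both, and 42.7% and 52.1% held mitosis genes only. Neither list reached the bound in 12.6% and 31.4%. Among cells at 5 or more mitosis-gene UMIs, 48.6% of control (47.2 to 50.1) and 21.6% of mutant cells (19.5 to 23.7) reached the S-phase bound, and among those at 20 or more, 32.6% and 13.04%. The intervals of the shares among mitosis-positive cells did not overlap between the libraries at either cut. They cover counting error within each library only, so this gives no test of the genotype. The S-phase list itself stood at 1817 CPM in the control gate and 1084 CPM in the mutant gate. Shares at a fixed bound of 5 UMIs do not separate fewer S-phase cells from this lower level of the list. No phase was assigned to cells from these counts.

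A fixed list of 66 further mitosis genes gave a like picture. Their sum stood at 4590 CPM in control and 4159 CPM in mutant cells. A ratio above 1 was found for 24 of 66, against 41.3% of all genes, with a median log2 ratio of -0.21. At least 1.5-fold higher were 2 of 66, against 15.9% of all genes, and lower by that much 5 of 66, against 23.7%. These shares too are not matched for abundance. The 2 higher ones were Hjurp and Psrc1, while other centromere and spindle genes of the list were lower, such as Cenpi (ratio 0.685) and Tacc3 (0.745). Hjurp, the chaperone that loads Cenpa at centromeres, stood at 24.2 and 48.1 CPM (ratio 1.99, interval 1.83 to 2.17). Psrc1, a spindle protein, stood at 11.1 and 27.2 CPM (ratio 2.46, interval 2.19 to 2.77). Pttg1 (securin), the inhibitor of separase, stood at 147 and 175 CPM, and Ckap5, a microtubule polymerase, at 53.9 and 65.4 CPM. At the low end, Cenpm, an inner kinetochore protein, stood at 39.0 and 20.5 CPM (ratio 0.525, interval 0.471 to 0.584). Gtse1 stood at 4.50 and 2.25 CPM, Esco2, the cohesin acetyltransferase of S phase, at 26.9 and 17.3 CPM, and Pbk, a mitotic kinase, at 37.4 and 25.4 CPM. The Cenpa chaperone and Cenpa itself were thus both higher in the mutant gate.

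**Figure D4:**
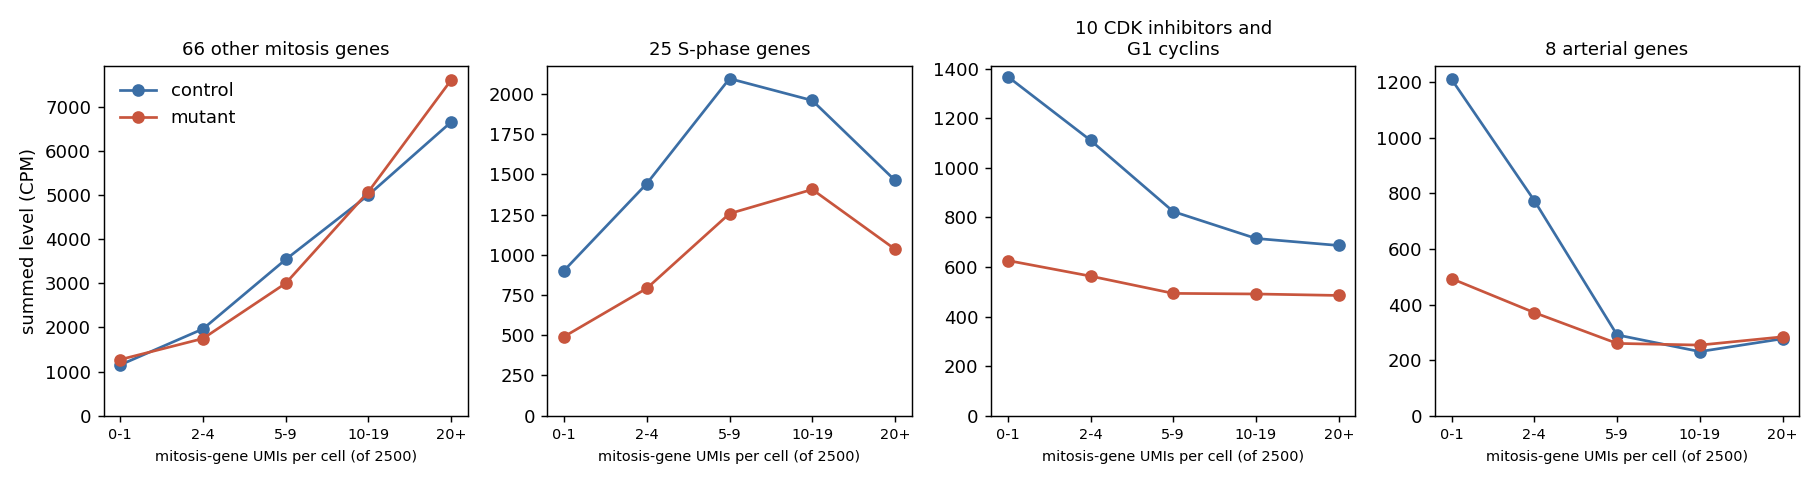
Summed level (CPM, vertical axes starting at 0) of 66 other mitosis genes, 25 S-phase genes, 10 CDK inhibitors and cyclins, and 8 arterial genes, in bands of endothelial cells by mitosis-gene UMIs of 2500 (horizontal axes), for control (blue) and mutant (red). Other mitosis genes climb with the band in both libraries, S-phase genes peak in the middle bands, and arterial genes are highest in the control cells with 0 or 1 UMI (1211 CPM).

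Within each library, the bands were set against genes that had not defined them. Cells with 5 or more mitosis-gene UMIs had more of the other 66 mitosis genes than cells with 0 or 1, at 4888 against 1126 CPM of thinned counts in the control (4.34-fold, 4.02 to 4.70) and 5056 against 1248 CPM in the mutant (4.05-fold, 3.79 to 4.33). In the control 65 of 66 were higher in the mitosis-rich cells, against 46.3% of 10426 genes with at least 20 thinned UMIs. In the mutant 63 of the 64 with that many UMIs were higher, against 53.1% of 8802 genes. Cenpt was the exception in both. The 66 genes took no part in defining the bands. S-phase genes were 2.24-fold and 2.86-fold higher in the mitosis-rich cells. Tyms, the thymidylate synthase, went from 62.0 to 207 CPM in the control and from 23.2 to 107 CPM in the mutant.

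Of the 5 CDK inhibitors on the list, Cdkn1c and Cdkn1a were higher in mitosis-poor cells of both libraries. Cdkn1c, the CDK inhibitor p57, stood at 901 CPM in mitosis-poor and 258 CPM in mitosis-rich control cells, and at 276 and 135 CPM in the mutant. Cdkn1a, the CDK inhibitor p21, stood at 93.8 and 22.0 CPM in the control and 139 and 85.2 CPM in the mutant. Their rich-to-poor ratios were 0.286 and 0.234 in the control and 0.488 and 0.612 in the mutant. The other inhibitors did not share this pattern: Cdkn2d (p19) had ratios of 1.92 (0.9998 to 4.24) in the control and 2.07 (1.22 to 3.79) in the mutant, Cdkn1b (p27) had 0.928 and 1.02 with intervals that held 1, and Cdkn2c had no UMI in the mitosis-poor cells. Ccnd1, the cyclin of early G1, ran the other way, at 85.0 and 180 CPM in the control and 25.9 and 51.4 CPM in the mutant. Over the whole gate Cdkn1c had a ratio of 0.497 between the libraries and Cdkn1a one of 3.66, so they differed in opposite directions. In hypoxia-high and hypoxia-low cells Cdkn1c had 0.253 and 0.464, and Cdkn1a had 1.61 and 2.23. Both genes were also higher in arterial than in venous cells. In the control Cdkn1c stood at 866 and 223 CPM there, and Cdkn1a at 40.4 and 15.6 CPM. In the mutant Cdkn1c stood at 280 and 124 CPM, and Cdkn1a at 158 and 58.0 CPM. The part of arterial or hypoxia-high cells in these contrasts was not tested.

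The makeup of the bands differed as well. In the control, 50.9% of cells with 0 or 1 mitosis-gene UMI were arterial-gated, against 12.7% of those with 20 or more, and in the mutant 30.4% against 16.1%. Arterial genes summed to 1211 CPM in the poorest and 277 CPM in the richest control band, and to 493 and 284 CPM in the mutant. Hypoxia-high cells made up 23.5% of the poorest and 7.22% of the richest control band, and 87.0% and 78.5% of those bands in the mutant. In both libraries the arterial-gated share and the hypoxia-high share were thus each highest in the poorest band. Hypoxia-high cells were the majority of every mutant band and of the whole mutant gate (1858 of 2351 cells). A hypoxia-high majority therefore does not set the poorest mutant band apart. The arterial and hypoxia gates do not exclude each other, so a cell can count in both shares. The part of this makeup in the shares of mitosis-rich cells was not tested beyond the gates above.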

How the data were processed

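Raw UMI counts were deposited for 9917 cells and 27998 genes, per the file headers. Cell Ranger (no version) and mm10 are named per the submitters' processing notes. Aligner settings, annotation release and cell filter: not given in the sources used here. A deposited cell table gives each cell's genotype word, total count and mitochondrial fraction. Its deposited size factor, a ratio, was not used. Cells were grouped by the genotype word, 1 library per genotype.

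Cells were thinned to 2500 UMIs without replacement. Marker gates and bands used thinned counts, and levels used raw UMIs summed per gate and divided by the gate total (Python 3.11.15, numpy 2.4.6, scipy 1.17.1, pandas 2.3.3, matplotlib 3.10.9). Log2 ratios had 0.5 UMI added to each sum. Genes needed at least 20 UMIs over both libraries. No p-value was computed. A count of 0 allows 0.0542 CPM for control and 0.154 CPM for mutant endothelial cells, from a floor of 3 UMIs. Scaling factors came from edgeR 4.0.16 (TMM) and DESeq2 1.42.0 (R 4.3.3). The interval and thinning steps were tested on simulated data.

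Full values were given for Mki67, Top2a, Ccnb1, Cdk1 and the 8 highest and 8 lowest members by the interval bound nearest 1, and for up to 4 of the other mitosis genes each way. The members, lists, bounds and pairs were chosen with earlier results of these data known. Positions of all 40 members were read from GENCODE vM21 (GRCm38), and promoters from RefSeq.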

Additional observations from a re-analysis of the deposited data

Results flagged for a closer look

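The mutant/control ratio of the summed mitosis-gene level lay on opposite sides of 1 in arterial and venous cells, at 0.949 in arterial and 1.06 in venous endothelial cells. In the hypoxia-gene split it was 1.11 in hypoxia-high and 0.989 in hypoxia-low endothelial cells, but the hypoxia-low interval of 0.976 to 1.003 held 1. With 1 library per genotype neither difference between gates was tested. The 4 ratios use CPM of each gate's own total, and the all-gene median log2 ratio was -0.18 in arterial, -0.13 in venous, -0.23 in hypoxia-high and -0.20 in hypoxia-low cells. In the same order, the log2 ratio of the sum was -0.075, 0.082, 0.145 and -0.016, above that median in each gate. The side of 1 therefore depends on the scaling.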

How the results depend on the processing

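The summed level changed side with the scaling. Its ratio of 0.924 became 1.02 with TMM and 1.01 with mitochondrial, ribosomal-protein and hemoglobin genes left out of the totals. It was 0.978 with median-of-ratios factors, 0.932 with the gate on unthinned counts, 0.932 in female-type cells, 0.909 in thinned sums and 0.935 without cells holding smooth muscle markers. TMM shifted all log2 ratios by 0.14. The members' median log2 ratio of -0.17 became -0.033 with TMM and -0.040 with reduced totals. A fold of 2 left 1 lower member in place of 2, against 10.3% of all genes.

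The share of cells at 5 or more UMIs was lower in the mutant under each alternative except the bound of 20. In the control it was 92.0% at a bound of 3, 57.7% at 10, 18.5% at 20, 85.3% at 5000 UMIs with a bound of 10, 82.0% without Top2a and Mki67, 60.4% without the 5 most abundant members, 94.7% unthinned and 84.2% without smooth muscle marker cells. In the mutant it was 80.4% at 3, 43.9% at 10, 19.6% at 20, 44.1% without the 5 most abundant members and 85.5% unthinned. The difference of -16.6 points was -11.6 at 3, -13.7 at 10 and -9.21 unthinned, and 1.02 at 20. The bound of 20, the smooth muscle setting and a limit of 10% on the mitochondrial fraction were chosen after seeing the data.

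Of 400 member ratios over 10 settings, 314 stayed within the main interval and 0 moved by over 1.5-fold. A further 77 moved outside the interval, and 9 crossed 1 from a main interval that did not hold 1. Crossings by members whose main interval held 1 are not among these 9, such as Ccnb1 (1.09) and Aurka (1.10) with TMM. With TMM and with reduced totals, Top2a was 1.01 and 1.002, Cenpe 1.02 and 1.02, Cks1b 1.04 and 1.03, and Cks2 1.02 and 1.01. Ndc80 was 0.980 in thinned sums. The causes were not tested. No paired analysis was possible because each genotype has 1 library and no test was run. Depth limits the members with the fewest UMIs, such as Nuf2 with 240 in the mutant gate, and no value measures variation between embryos.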
